A study of Mus musculus with 4 samples.

Results

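The cholesterol and fatty acid synthesis genes described here are 29 mouse genes, listed by name from the pathway driven by the sterol regulatory element binding proteins (SREBPs). The rule uses no measured value, but the list was drawn up with earlier results of these data known. All 29 were found among the 56239 genes of the count table, and all 29 passed the low-count filter that left 15070 genes for testing. They were measured by RNA-seq in double-positive (DP) thymocytes, the CD4+CD8+ stage of T cell development in the thymus, sorted from C57BL/6 mice. KO mice carried Cd4-cre with CHAF1bfloxp/floxp alleles, and WT mice carried the same floxed alleles without Cre, so loss of Chaf1b and presence of Cre cannot be told apart. Cd4-cre acts in cells that have switched on Cd4. There were 2 KO and 2 WT libraries. The labels do not state age, sex or how many mice gave each library.

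SREBPs are transcription factors held in the endoplasmic reticulum membrane by SCAP and the INSIG proteins when sterols are plentiful. When sterols fall, SCAP escorts them to the Golgi, where they are cut and released to the nucleus. There they switch on the enzymes that build cholesterol from acetyl-CoA through mevalonate, squalene and lanosterol, and those that build and desaturate fatty acids. Dividing lymphocytes draw on both pathways for new membrane.

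Promoter windows of 300 bases (250 before to 50 after the start) were given by RefSeq (GRCm38.p6) for 23 of the 29 genes, with none for Sqle, Fdps, Scd1, Scd2, Fdft1 and Stard4. Both strands were searched. Some genes had several windows, and a gene was counted if any of its windows held the letters. The letters CCAAT, the box bound by NF-Y, were found for 20 of 23 genes (87.0%). This compares with 41.1% of 27025 genes with a window and 43.0% of the 10018 tested genes with one. GGGCGG, a GC box, was in 19 of 23 (82.6%), against 38.2% of all genes and 66.3% of tested genes. TCACNCCAC, one form of the sterol regulatory element, was in 1 of 23, Hmgcs1, against 1.44% of all genes. TCACNTGA, an E-box form, was in 1 of 23, Insig2, against 4.78%. A shorter core, TCACCC, was added after the Srebf2 and Fasn windows had been read. It was in 8 of 23 (34.8%), against 18.1% of all genes, and since those windows led to its choice its count is a description only. TCACCC lies inside some forms of TCACNCCAC and so overlaps it in Hmgcs1. A match is a run of letters, not a measured site. The 250 bases before the start are shown for a mevalonate enzyme, the sterol-pathway factor and 2 fatty acid enzymes, because these contrast windows with and without the letters. Capitals mark CCAAT and the sterol-element letters TCACCC and TCACNCCAC, on either strand.
Hmgcs1 (chr13:119690101-119690350, plus strand): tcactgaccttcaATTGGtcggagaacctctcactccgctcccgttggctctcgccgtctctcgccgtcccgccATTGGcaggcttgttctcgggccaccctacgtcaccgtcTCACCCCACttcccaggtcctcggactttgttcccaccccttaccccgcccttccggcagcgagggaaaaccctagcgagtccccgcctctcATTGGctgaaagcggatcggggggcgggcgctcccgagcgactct
Srebf2 (chr15:82147019-82147268, plus strand): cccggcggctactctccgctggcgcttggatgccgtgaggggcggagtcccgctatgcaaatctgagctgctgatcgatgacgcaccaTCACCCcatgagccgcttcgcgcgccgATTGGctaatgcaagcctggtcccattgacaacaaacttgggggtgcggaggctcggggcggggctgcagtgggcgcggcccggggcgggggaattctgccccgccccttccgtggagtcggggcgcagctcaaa
Fasn (chr11:120824548-120824797, minus strand): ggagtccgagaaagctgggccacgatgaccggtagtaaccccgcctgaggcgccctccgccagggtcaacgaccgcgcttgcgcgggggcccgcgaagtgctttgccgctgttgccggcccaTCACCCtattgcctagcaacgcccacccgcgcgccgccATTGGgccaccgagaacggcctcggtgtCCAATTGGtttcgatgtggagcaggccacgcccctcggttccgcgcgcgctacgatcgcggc
Elovl6 (chr3:129532136-129532385, plus strand): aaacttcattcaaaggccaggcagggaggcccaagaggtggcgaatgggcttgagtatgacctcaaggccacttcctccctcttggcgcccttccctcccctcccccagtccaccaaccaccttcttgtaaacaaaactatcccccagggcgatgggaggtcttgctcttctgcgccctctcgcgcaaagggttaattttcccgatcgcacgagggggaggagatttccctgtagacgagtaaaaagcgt
The Elovl6 stretch held none of these letters, and Acaca and Scap also lacked CCAAT. The only Acaca stretch begins at base 84195188 of chromosome 11, inside the gene, which starts at 84129672. Any promoter nearer that start was not read.

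Library totals ran from 21068760 to 27369874 counts. Chaf1b, the targeted gene, had 12.2 and 14.8 CPM (counts scaled to library size, with TMM factors) in KO libraries, against 27.8 and 31.7 CPM in WT libraries. Its log2 fold change was -1.14 ± 0.16 (SE), which missed the threshold in the planned fit (edgeR adjusted p = 0.267). It passed in edgeR with the replicate number as a term (adjusted p = 0.0172) and in DESeq2 (adjusted p = 1.8e-04). Which exons the allele removes is not stated in the sources used here, so remaining Chaf1b counts do not measure intact transcript. DP markers were high, with Cd4 at 2064 and 1895 CPM in KO libraries and 1812 and 1886 CPM in WT libraries. Xist and Ddx3y put female cells in replicate 1 and male cells in replicate 2 of both genotypes, so differences within a replicate number are within a sex. KO replicate 1 stood apart: mitochondrially encoded genes took 3.30% and 2.03% of counts in KO libraries, against 1.33% and 1.45% in WT libraries. The 12 dividing-cell markers summed to 3996 and 2606 CPM in KO libraries and 2543 and 2379 CPM in WT libraries, a sum carried by Mki67, Top2a and Cenpf. Their median log2 difference was only 0.06 within replicate number 1. KO and WT libraries did not overlap for 5 markers higher in KO (41.7%, against 27.9% of all genes). The same held for 4 lower in KO (33.3%, against 28.4% of all genes), Cdk1 and Aurkb among them. In bulk RNA, fewer cells of a type and less RNA per cell cannot be told apart.

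None of the 29 genes passed the test. edgeR's quasi-likelihood test with Benjamini-Hochberg adjustment called 0 of 29 higher and 0 lower in KO cells at an adjusted p of 0.05, where it called 0.00664% of all tested genes higher and 0% lower. DESeq2 also called 0 and 0, with no adjusted p for Fdps and Scd1, against 1.17% of all genes higher and 1.89% lower. At an unadjusted p under 0.05 edgeR had 4 of the 29, with Elovl6 and Fasn higher and Insig2 and Tm7sf2 lower in KO cells, and 2535 of all 15070 genes. Calls depended on the libraries and the filter. Without KO replicate 2, which leaves a single KO library, the log2 fold change was 1.12 for Acaca, 0.83 for Fasn and -1.24 for Tm7sf2. With no low-count filter edgeR called Acaca and Fasn higher and Tm7sf2 lower. It then called 627 genes higher and 838 lower of all 26019 tested. A p that misses the threshold does not show that levels were equal.

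The median log2 fold change of the 29 genes was 0.09, beside -0.003 for all tested genes. It was 0.17 within replicate number 1 and -0.02 within number 2, and 0.0072 without KO replicate 1. With library totals as the scaling it was 0.0027, and the median of all genes moved down alike, to -0.084. KO and WT libraries did not overlap for 8 genes that were higher in KO (27.9% of all genes did this) and for 4 that were lower (28.4% of all genes). Both shares of the 29 were near or under those backgrounds, and 17 genes overlapped. KO was higher in both replicate numbers for 12 of the 29 (35.5% of all genes) and lower in both for 6 (36.7% of all genes). A log2 fold change beyond 0.5 was seen for Acaca, Fasn and Elovl6 upward (9.91% of all genes) and for Tm7sf2 and Scd1 downward (13.6% of all genes). KO replicate 1 was the highest or lowest library for 21 of the 29, as for 74.6% of all genes.

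**Figure D1:**
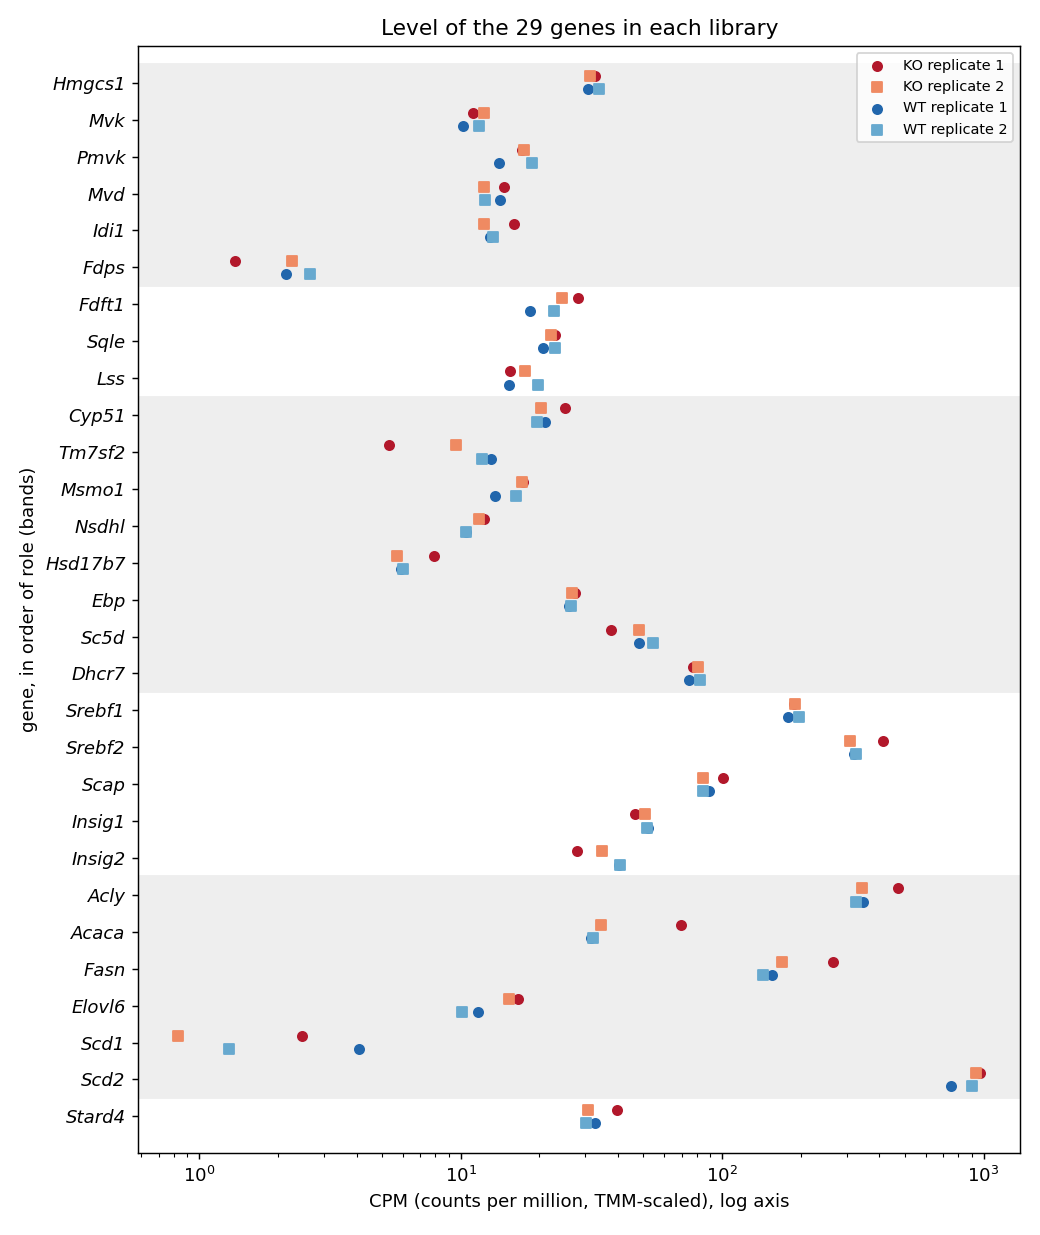
Level of each of the 29 genes in each library, in CPM on a log axis, with genes in order of role (shaded bands). Points are single libraries. KO and WT points lie close together for most genes, and KO replicate 1 stands off for Acaca (69.5 CPM), Fasn (265 CPM) and Tm7sf2 (5.33 CPM).

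The 6 enzymes from acetyl-CoA to farnesyl diphosphate did not separate the genotypes. Their summed level was 92.9 and 87.8 CPM in KO libraries, against 84.3 and 92.7 CPM in WT libraries. The groups overlapped for all 6. Hmgcs1, which makes HMG-CoA, had 32.5 and 31.3 CPM in KO libraries, against 30.8 and 33.9 CPM in WT libraries. Mvk and Pmvk, which phosphorylate mevalonate, had log2 fold changes of 0.09 and 0.08, and Mvd, which then removes a carboxyl group, had 0.02. Idi1, the isomerase of the C5 building block, had 16.0 and 12.3 CPM in KO libraries, against 12.9 and 13.3 CPM in WT libraries. KO replicate 1 was the high one, and the log2 fold change was 0.11 ± 0.19 (SE, edgeR adjusted p = 0.777). Idi1 counts are uncertain, since 33.3% of its longest transcript matches 3 other genes at 95% identity or more. Fdps, which joins these units into farnesyl diphosphate, had 1.37 and 2.27 CPM in KO libraries, against 2.15 and 2.64 CPM in WT libraries. Its log2 fold change was -0.40 ± 0.37 (SE, edgeR adjusted p = 0.585). Fdps counts are uncertain, because 26.7% of its exon bases lie in Gm43738 and it has near-identical copies.

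Of the 3 genes of squalene and lanosterol formation, 1 had KO libraries above WT libraries without overlap (33.3%, against 27.9% of all genes). Fdft1, squalene synthase, had 28.2 and 24.5 CPM in KO libraries, against 18.5 and 22.7 CPM in WT libraries. Both KO values were above both WT values, with a log2 fold change of 0.35 ± 0.16 (SE, edgeR adjusted p = 0.320). Its counts are uncertain, since 54.7% of its longest transcript matches other genes at 95% identity or more. Sqle, the squalene epoxidase, had 23.0 and 22.1 CPM in KO libraries, against 20.7 and 23.0 CPM in WT libraries. Lss, which closes the ring to lanosterol, had 15.5 and 17.6 CPM in KO libraries, against 15.3 and 19.8 CPM in WT libraries. Its log2 fold change was -0.09 ± 0.18 (SE, edgeR adjusted p = 0.818).

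Among the 8 enzymes from lanosterol to cholesterol, members lay on both sides of 0. Tm7sf2, a sterol C14 reductase, had 5.33 and 9.57 CPM in KO libraries, against 13.1 and 12.1 CPM in WT libraries. Both KO values were below both WT values, KO replicate 1 by far the lower. The log2 fold change was -0.76 ± 0.29 (SE, edgeR adjusted p = 0.288), and it was -1.29 within replicate number 1 and -0.33 within number 2. Tm7sf2 shares 12.1% of its exon bases with Vps51 on the same strand. Sc5d, the sterol C5 desaturase, had 37.7 and 47.9 CPM in KO libraries, against 48.2 and 54.3 CPM in WT libraries. The nearest KO and WT values almost met, and the log2 fold change was -0.26 ± 0.15 (SE, edgeR adjusted p = 0.402). Msmo1, Nsdhl and Ebp had both KO libraries above both WT libraries (37.5% of the 8, against 27.9% of all genes). Tm7sf2 and Sc5d had both below (25% of the 8, against 28.4% of all genes). The log2 fold changes of Msmo1, Nsdhl and Ebp were 0.21, 0.20 and 0.04. That of Ebp turned to -0.039 with library totals, which move the median of all genes to -0.084. Msmo1 and Nsdhl take part in removing the C4 methyl groups, and Ebp shifts a ring double bond. Cyp51, the C14 demethylase, had 0.16, Hsd17b7, the 3-keto reductase, had 0.20, and Dhcr7, which makes the last reduction of one branch, had 0.01. Over all 17 sterol enzymes the summed level was 370 and 372 CPM in KO libraries, against 352 and 385 CPM in WT libraries.

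The SREBP factors and their partners were among the more abundant of the 29. Per length, Srebf2 averaged 172 TPM (counts per exon length, scaled to a common total) in KO libraries and 170 TPM in WT libraries, and Srebf1 averaged 116 TPM in KO libraries and 126 TPM in WT libraries. TPM carries no TMM factors, so these means give abundance and do not compare the genotypes. Srebf1, the factor tied most to fatty acid genes, had 188 and 190 CPM in KO libraries, against 178 and 196 CPM in WT libraries. Its log2 fold change was 0.02. Srebf2, tied most to sterol genes, had 413 and 309 CPM in KO libraries, against 320 and 325 CPM in WT libraries. Only KO replicate 1 was high, and the log2 fold change was 0.16 ± 0.17 (SE, edgeR adjusted p = 0.624). Scap, the escort, had a log2 fold change of 0.09.

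RNA of the retention genes Insig1 and Insig2 was lower in KO libraries without passing the test, for Insig1 only slightly. These 2 of the 5 genes of this role had both KO libraries below both WT libraries (40%, against 28.4% of all genes). Insig2 had 27.9 and 34.6 CPM in KO libraries, against 40.3 and 40.7 CPM in WT libraries. The groups did not overlap, and the log2 fold change was -0.37 ± 0.14 (SE, edgeR adjusted p = 0.283), with -0.53 within replicate number 1 and -0.23 within number 2. Insig1, itself an SREBP target, had 46.4 and 50.7 CPM in KO libraries, against 52.0 and 51.7 CPM in WT libraries. Its log2 fold change was -0.10 ± 0.11 (SE, edgeR adjusted p = 0.668), with -0.16 within replicate number 1 and -0.03 within number 2. The TPM ratio of Insig1 to Insig2 was 1.86 and 1.65 in KO libraries, against 1.45 and 1.43 in WT libraries.

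The fatty acid group had the highest median difference of the role groups. Its summed level was 1796 and 1500 CPM in KO libraries, against 1295 and 1412 CPM in WT libraries, a sum carried mostly by Scd2 and Acly. The median log2 fold change of the group was 0.41, with 0.47 within replicate number 1 and 0.09 within number 2. Of the 6 genes, 4 (66.7%) had both KO libraries above both WT libraries, against 27.9% of all genes, while Acly and Scd1 overlapped. Markers of other thymocyte stages were also higher in KO libraries. The 9 double-negative and cycling immature markers summed to 601 and 394 CPM in KO libraries, against 336 and 330 CPM in WT libraries, with a median log2 fold change of 0.64 over the 7 tested. The 8 mature single-positive markers summed to 319 and 278 CPM in KO libraries, against 242 and 230 CPM in WT libraries. Their part in the fatty acid values was not tested. Acly, which makes cytosolic acetyl-CoA from citrate, had 470 and 343 CPM in KO libraries, against 345 and 326 CPM in WT libraries, with KO replicate 2 between the WT values.

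Acaca, acetyl-CoA carboxylase, had 69.5 and 34.5 CPM in KO libraries, against 31.5 and 32.1 CPM in WT libraries. Nearly all of the difference came from KO replicate 1. The log2 fold change was 0.71 ± 0.31 (SE, edgeR adjusted p = 0.309), with 1.14 within replicate number 1 and 0.10 within number 2. Acaca counts are uncertain, since 64.3% of its longest transcript matches Gm5182 at 95% identity or more. Fasn, fatty acid synthase, had 265 and 170 CPM in KO libraries, against 155 and 143 CPM in WT libraries. Both KO values were above both WT values, with a log2 fold change of 0.55 ± 0.21 (SE, edgeR adjusted p = 0.289). Elovl6, which lengthens palmitate, had 16.5 and 15.3 CPM in KO libraries, against 11.7 and 10.1 CPM in WT libraries. It was higher by a like amount in both pairs, 0.50 within replicate number 1 and 0.59 within number 2, and the pooled value was 0.55 ± 0.17 (SE, edgeR adjusted p = 0.267). Of its longest transcript, 13.5% matches Gm11295 at 95% identity or more.

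**Figure D2:**
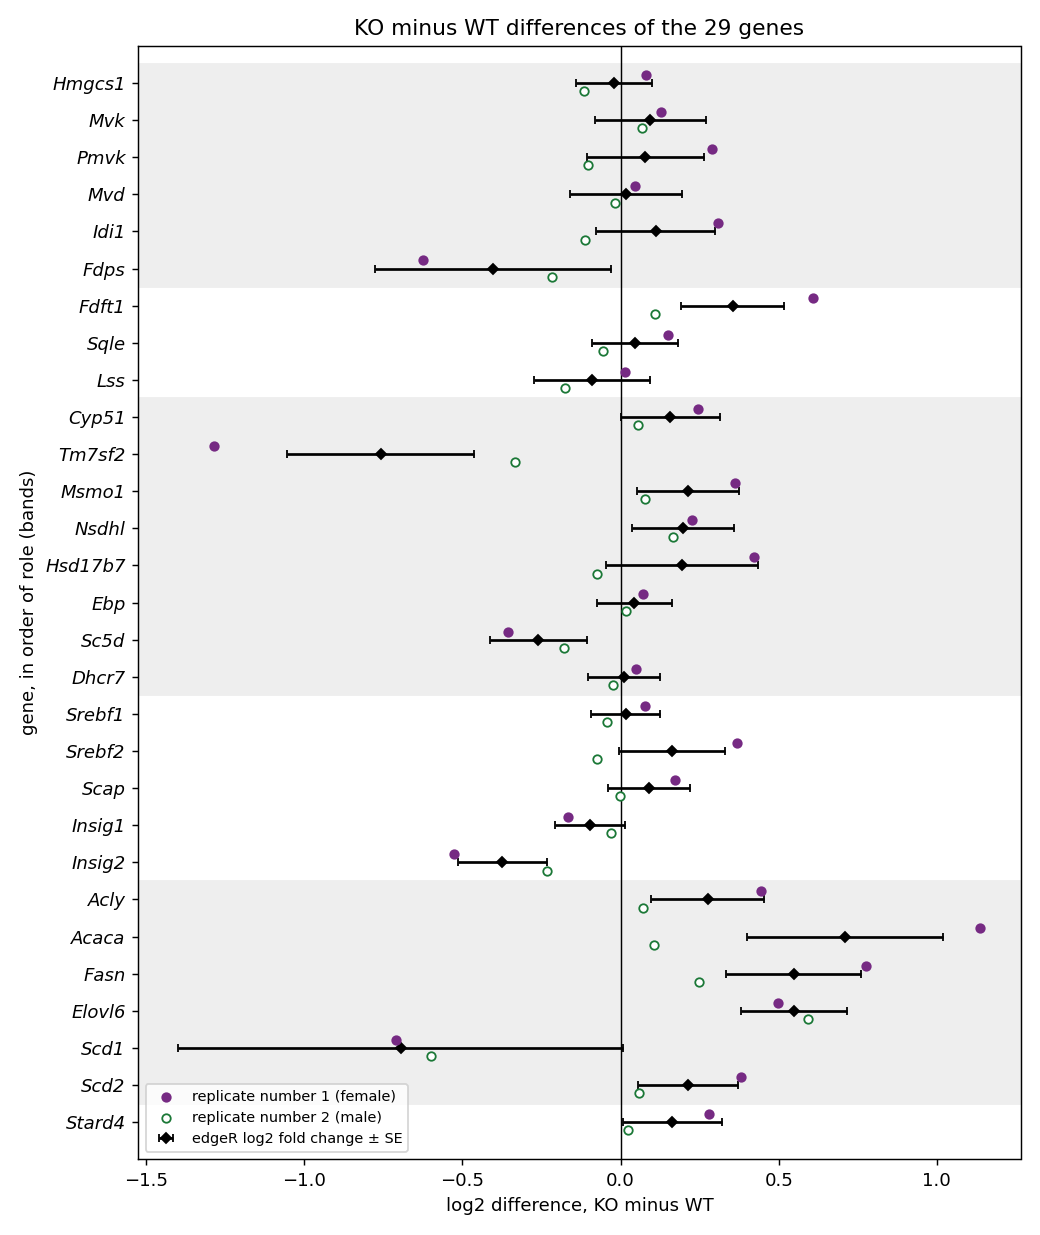
Log2 difference, KO minus WT, for each gene within replicate number 1 (filled) and number 2 (open), with the edgeR log2 fold change ± SE (diamonds). Number 1 holds the larger difference for 26 of the 29 genes, a larger share than the 73.3% of all tested genes. Elovl6 is an exception, with 0.50 and 0.59.

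Across the whole table, differences within replicate number 1 went with gene length. Within replicate number 1 the median log2 difference of all genes was -0.09 for summed exon lengths of 2000 to 4000 bases and 0.25 above 12000 bases. Within number 2 these medians were -0.02 and 0.05. Acaca, with 17074 exon bases, is the longest of the 29, and Fasn has 10947. Less the median of their length class, the pooled log2 fold change was 0.56 for Acaca and 0.46 for Fasn. The part of length, RNA quality or the dividing-cell markers in these differences was not tested.

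**Figure D3:**
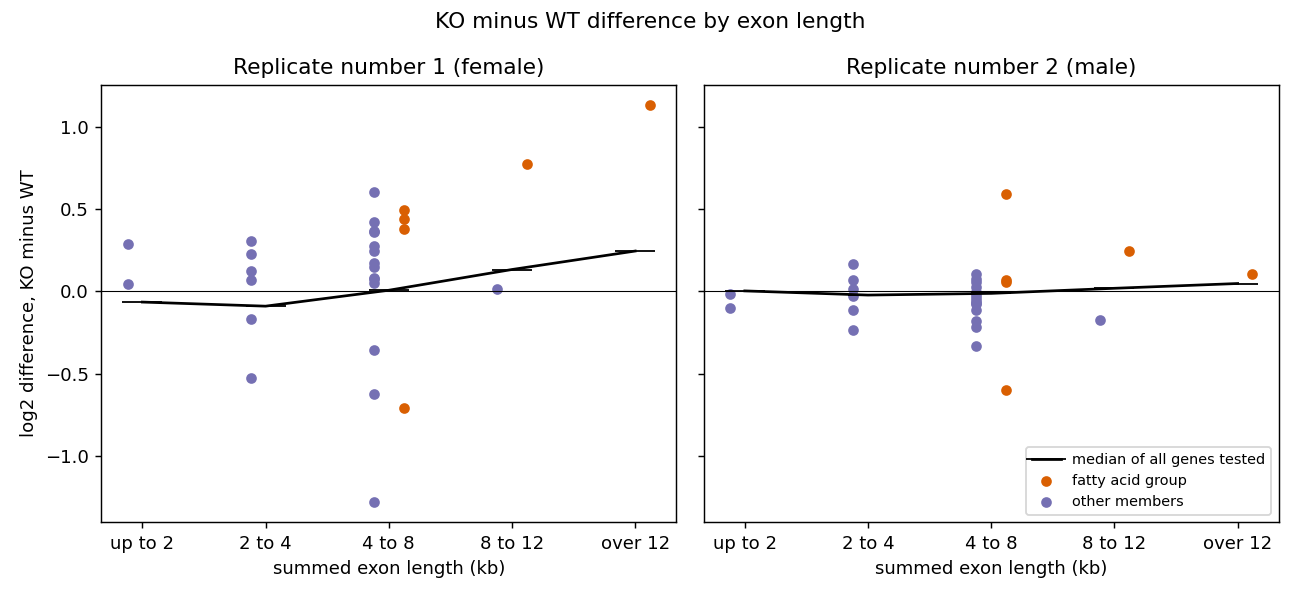
Log2 difference, KO minus WT, by summed exon length, within replicate number 1 (left) and number 2 (right). Points are the 29 genes, the fatty acid group in orange, and the black line joins the medians of all tested genes per length class, which reach 0.25 above 12000 bases in number 1.

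The stearoyl-CoA desaturases, which put a double bond into stearate and palmitate, differed in level. Scd2 was the most abundant of the 29 per length, averaging 603 TPM in KO libraries and 570 TPM in WT libraries. It had 973 and 937 CPM in KO libraries, against 748 and 900 CPM in WT libraries, and the log2 fold change was 0.21 ± 0.16 (SE, edgeR adjusted p = 0.50). Of the longest Scd2 transcript, 11.4% matches Scd1 at 95% identity or more. Scd1, the main liver form, had 2.47 and 0.832 CPM in KO libraries, against 4.09 and 1.30 CPM in WT libraries. It followed the replicate number more than the genotype, with a log2 fold change of -0.70 ± 0.70 (SE, edgeR adjusted p = 0.620). Within each number Scd1 was lower in KO, by -0.71 in number 1 and -0.60 in number 2, at low counts. Hepatocyte transcripts followed the same order of replicate numbers. The 14 hepatocyte markers summed to 481 and 6.84 CPM in KO libraries, against 486 and 99.0 CPM in WT libraries, and Alb alone had 291 and 3.33 CPM in KO libraries, against 255 and 56.6 CPM in WT libraries. Their part in the Scd1 values was not tested.

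**Figure D4:**
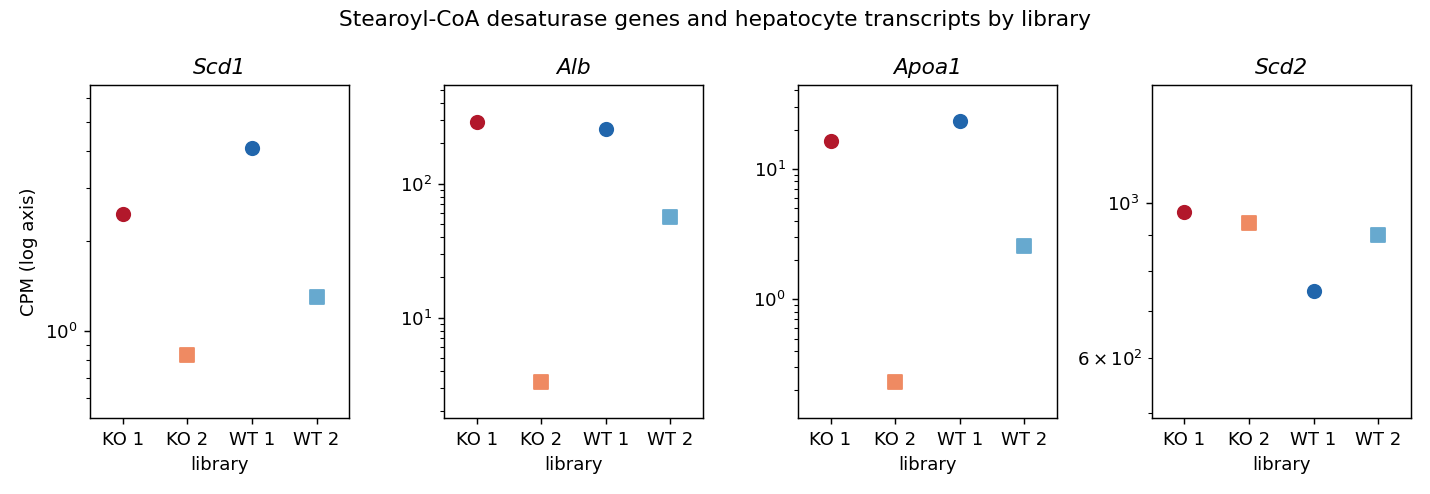
CPM on log axes of Scd1, the hepatocyte transcripts Alb and Apoa1, and Scd2 in each library. Scd1 and both hepatocyte transcripts are higher in replicate 1 than in replicate 2 of both genotypes, while Scd2 stays between 748 and 973 CPM.

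Stard4, a carrier of cholesterol between membranes, had 39.6 and 30.7 CPM in KO libraries, against 32.6 and 30.1 CPM in WT libraries. The groups overlapped, with a log2 fold change of 0.16 ± 0.16 (SE, edgeR adjusted p = 0.599).

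Related genes outside the 29 were read in 4 lists, and the planned edgeR test called none of them. Of 12 other sterol synthesis and uptake genes, 12 were tested. The most abundant were Lipa, the lysosomal acid lipase, and Mbtps1, which makes the first SREBP cut. Lipa had 514 and 465 CPM in KO libraries, against 342 and 376 CPM in WT libraries. Mbtps1 had 376 and 423 CPM in KO libraries, against 393 and 418 CPM in WT libraries. Of 26 other fatty acid genes, 22 were tested. Acacb, the acetyl-CoA carboxylase of the mitochondrial surface, had 2.29 and 2.64 CPM in KO libraries, against 0.717 and 0.705 CPM in WT libraries. It passed only with the replicate number as a term (log2 fold change 1.79, edgeR adjusted p = 0.0393), where 1.01% of all genes were called higher and 2.2% lower.

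Of 16 genes of sterol efflux, storage and LXR control, 12 were tested. Abcg1, a cholesterol exporter, had 481 and 326 CPM in KO libraries, against 229 and 254 CPM in WT libraries. It passed in DESeq2 only (adjusted p = 0.0239), and edgeR gave a log2 fold change of 0.74 with an adjusted p of 0.267. Of 15 genes that control SREBP processing or sterol-dependent degradation, 15 were tested. Aup1, which takes part in degradation at the endoplasmic reticulum, had 42.2 and 55.2 CPM in KO libraries, against 91.7 and 89.7 CPM in WT libraries. It passed in DESeq2 (adjusted p = 0.00167) and in edgeR with the replicate number as a term (adjusted p = 0.0194), not in the planned edgeR fit (adjusted p = 0.267). Aup1 counts are uncertain, as 23.0% of its exon bases overlap Htra2 on the other strand.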

How the data were processed

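Per the labels' protocols, poly-T selected RNA was made into unstranded libraries. The submitters' processing notes name the GRCm38 build, HISAT2, Trim Galore 0.5.0, FastQC, DESeq2 and featureCounts 1.6.4. The deposited table holds unnormalized fragment counts for each gene from featureCounts 1.6.3 with Ensembl 98, per the file headers, without strand and without fragments shared by several genes or places. The deposited gene length in bases, another kind of value per the file headers, gave the TPM.

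Genes passing filterByExpr (15070) were scaled with TMM and tested in R 4.3.3 with edgeR 4.0.16's quasi-likelihood test, KO minus WT, with no covariate, 2 residual degrees of freedom and Benjamini-Hochberg adjustment at 0.05. Alternatives used DESeq2 1.42.0, limma 3.58.1 (voom), other scalings, no filter, the replicate number as a term, and leaving out each library. For within-number differences, 2 prior counts were added before taking log2 CPM. The edgeR step was tested on simulated data. A count of 0 allows 3 counts (0.106 to 0.139 CPM), counting error only. Replicates differed beyond sampling noise (chi-square per degree of freedom 52.0 in KO, 11.5 in WT). The labels do not say how many animals gave each library. Xist and Ddx3y put female cells in replicate 1 and male cells in replicate 2, so the replicates of a genotype came from different animals. The p-values cover only library-to-library spread, in which animal, sex and technical differences cannot be told apart.

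Named were genes past the threshold in edgeR with or without the replicate term or in DESeq2, and the 2 largest changes per role. From related lists the genes past it were named, or the 2 most abundant. Fasn, Elovl6 and others outside that rule are given for completeness. The members, named by pathway with no value in the rule, and the lists and tests were chosen with earlier results of these data known. Promoter motifs were searched in RefSeq windows: TCACNCCAC, TCACNTGA, CCAAT and GGGCGG, and TCACCC, which was added after windows had been read.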

Additional observations from a re-analysis of the deposited data

Results flagged for a closer look

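For 11 of the 29 genes the female pair (replicate number 1) and the male pair (number 2) differed in opposite directions. Over all tested genes the share was 27.8%. The 29 had smaller differences, with a median absolute log2 fold change of 0.16, against 0.26 for all tested genes. Several of the values below lie near 0, and the part of small differences in the opposite signs was not tested. With 1 KO and 1 WT library per sex the difference between pairs was not tested. The log2 differences, KO minus WT, in the female and then the male pair were as follows. Among mevalonate enzymes, Hmgcs1 had 0.079 and -0.11, Pmvk 0.29 and -0.10, Mvd 0.046 and -0.017, and Idi1 0.31 and -0.11. Among later sterol enzymes, Sqle had 0.15 and -0.055, Lss 0.015 and -0.17, Hsd17b7 0.42 and -0.074, and Dhcr7 0.050 and -0.024. Among the SREBP factors and escort, Srebf1 had 0.078 and -0.043, Srebf2 0.37 and -0.073, and Scap 0.17 and -0.0015.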

How the results depend on the processing

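With the replicate block, edgeR called 483 genes and DESeq2 380, against 1 in the planned fit, and 0 of the 29 in either. The smallest edgeR adjusted p among the 29 was then 0.100 (Tm7sf2). The replicate numbers are not stated to pair samples. Deviations of same-numbered libraries correlated at 0.472 over all genes. DESeq2 without the block called 462 genes. With no low-count filter edgeR called 1465 of 26019 genes, 627 higher and 838 lower. Of the 29, 2 were then called higher (Acaca, Fasn) and 1 lower (Tm7sf2). Leaving out 1 library gave 1 to 5148 genes, 0 to 7 of the 29 higher, 0 to 3 lower, and a median of 0.007 to 0.13. The high ends, 5148, 7 and 3, came without KO replicate 2, where the lone KO library is assumed to vary as the WT ones do. Without KO replicate 1, 520 genes were called. The cause of these shifts was not tested. With library totals, which moved the median of all genes to -0.084, 6 signs turned and the log2 fold changes were Pmvk -0.0039, Mvd -0.070, Sqle -0.037, Ebp -0.039, Dhcr7 -0.068 and Srebf1 -0.065. Leaving out 1 library, which also turned Hsd17b7, Srebf2 and Stard4 without KO replicate 1, they ran from -0.087 to 0.054 for Hmgcs1, -0.11 to 0.30 for Pmvk, -0.11 to 0.13 for Mvd, -0.089 to 0.29 for Idi1, -0.027 to 0.13 for Sqle, -0.26 to 0.11 for Lss, -0.060 to 0.41 for Hsd17b7, -0.054 to 0.084 for Dhcr7, -0.051 to 0.089 for Srebf1, -0.058 to 0.35 for Srebf2, -0.038 to 0.21 for Scap, -1.67 to 0.34 for Scd1 and -0.027 to 0.33 for Stard4.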
